A study of Mus musculus with 7 samples.

Results

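The enzymes of glycolysis and glycogen metabolism were examined in hearts of KLF15-null mice against hearts of wild-type mice (WT). Krüppel-like factor 15 (KLF15) is a DNA-binding regulator of metabolic genes in heart and other tissues. The gene set held 36 symbols: the enzymes from glucose 6-phosphate to lactate, the lactate carriers, and the enzymes that build and break glycogen. A symbol was measured where the platform annotation gave it a probe set of its own, which held for 32 of the 36 (58 probe sets), of 12393 genes in all. Gpi1, Pfkfb1, Eno1 and Gapdh had none, and the 2 probe sets that name Gapdh also name other genes and were not used. Each gene was represented by its gene-specific probe set with the highest WT mean. Cross-hybridizing probe sets (suffix _x_at) stood in only for Aldoa, which has no other kind.

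The KLF15-null group had 3 arrays and the WT group 4, each an Affymetrix 3' expression array of total RNA from flash-frozen whole heart. Mice of both genotypes were labelled as male, of strain C57/BL6 and 3 to 4 months old, and all had been fasted for 18 h, so there was no fed group. The sources used here do not say how the null allele was made or whether animals were pooled. Nothing in the labels states a litter or day, so the p-values measure the spread between these 7 arrays.

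Glycolysis splits glucose 6-phosphate into pyruvate, and lactate dehydrogenase interconverts pyruvate and lactate. Glycogen is the stored polymer of glucose: phosphoglucomutase links it to glucose 6-phosphate, glycogen synthase extends it and glycogen phosphorylase releases glucose 1-phosphate from it. The heart normally burns mainly fatty acids, and in fasting its glycogen is known to be kept or even raised. Many steps are served by several isoform genes, such as the muscle (Pfkm), liver (Pfkl) and platelet (Pfkp) forms of phosphofructokinase.

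All values are log2 signals per probe set as deposited, which lay between 3.20 and 14.28, and all differences are KLF15-null minus WT on that log2 scale. Array medians lay between 6.22 and 6.33. Pairs of KLF15-null arrays correlated at 0.986 to 0.993 (Pearson's r across 22626 probe sets), pairs of WT arrays at 0.995 to 0.997 and arrays of different genotype at 0.942 to 0.964. KLF15-null array 2 stood furthest from WT (0.942 to 0.945, against 0.953 to 0.964 for the other KLF15-null arrays). Klf15 itself averaged 6.33 ± 0.17 in KLF15-null hearts (SD, n = 3) and 8.87 ± 0.19 in WT hearts (SD, n = 4), a difference of -2.54 (adjusted p = 1.26e-06). The sources used here do not say whether its probe set lies in the deleted part. Against the label male, Xist lay at the 91.4th percentile of all probe sets on the 7-array mean, while the 7 probe sets specific to 4 genes of the Y chromosome lay at or below the 27.3th. The heart muscle markers were bright on every array, with 2 of 10 past the test and higher (Nppa at 1.71, Myl3 at 0.24), 0 lower and 8 not past it. After cyclic loess normalization, described below, 1 of them was higher and 8 were lower, Myl3 among the lower at -0.26.

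In KLF15-null hearts 4 of the 12 tested genes of glycogen metabolism were lower and 1 higher (41.7% called). Of the 16 tested genes of glycolysis and lactate handling 3 were higher and 1 lower (25% called). Over all genes tested 45.8% were called, 23.9% higher and 21.9% lower, and the differences between these shares were not tested. The counts by step and by list given below stand beside the same shares of all genes. Fructose 1,6-bisphosphatase 2 (Fbp2), the muscle isoform of the enzyme that reverses the phosphofructokinase step, fell 3.04-fold. Both heart-expressed glycogen phosphorylase genes fell, Pygm 1.89-fold and Pygb 1.61-fold, as did phosphoglucomutase 1 (Pgm1, 1.71-fold) and, on its brightest probe set, UDP-glucose pyrophosphorylase (Ugp2, 1.96-fold). The platelet-type phosphofructokinase Pfkp rose 2.14-fold and the broadly expressed phosphoglycerate mutase Pgam1 rose 2.09-fold. Of the abundant muscle enzymes of glycolysis, Pgam2 rose 1.33-fold, while Aldoa, Eno3, Pkm and Ldhb did not pass the test on their chosen probe sets.

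Only probe sets with a 7-array mean of at least log2 5.74, the 40th percentile, were tested, with limma across 13576 of them, and a gene was called at an adjusted p under 0.05. Of the 32 measured genes 28 were tested, and Aldoc, Slc16a3, Pygl and Phkg1 stayed under the filter. Of the 28, 4 rose, 5 fell and 19 missed the threshold, so 32.1% were called. Over all 8355 genes tested, on probe sets chosen the same way, 45.8% were called, 23.9% higher and 21.9% lower. The difference between these shares was not tested. Groups did not overlap in 5 enzymes that were higher (the 4 called and Slc16a1) and in the 5 lower ones, and in 48.7% of all genes tested in either direction. Their median difference was 0.02, against -0.01 over all genes tested.

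The count also depended on how arrays were scaled and on KLF15-null array 2. Of the 28 genes 16 lay in the brightest 10% of all genes by WT mean (9.96 or more). The 836 genes of that range had a median difference of 0.09, and 54.9% were called, 33.5% higher and 21.4% lower. Of the 16 enzymes 1 was higher and 4 lower, and 2 higher and 4 lower ones had groups without overlap, against 56.9% of the 836 in either direction. After cyclic loess normalization, which fits arrays to each other along brightness, 3 enzymes were higher and 11 lower (50%), against 23.1% and 25.8% of all genes tested. The median of the brightest 10% then lay on the other side of 0, at -0.22, with 18.3% of those genes higher and 47.8% lower. Quantile normalization gave 3 higher and 12 lower enzymes (53.6%), against 24.4% and 24.6% of all genes and 17.8% and 48.3% of the brightest 10%. Centring each array on its median gave 7 higher and 5 lower (42.9%), against 30.4% and 16.6% of all genes. The enzymes thus had a lower share called than all genes with deposited values. After cyclic loess or quantile normalization their share was higher than that of all genes (48.9% in each). The brightest 10% of genes, where 16 of the 28 lay, had a higher share called than the enzymes in each of these settings. It was 54.9% with deposited values and 66.1% after either normalization. None of these differences was tested. KLF15-null array 2 was the lowest of the 7 arrays for 14 of the 28 genes (50%), against 30.3% of all genes tested. Without it 8 were higher and 5 lower (46.4%), against 27% and 20.3% of all genes. RNA quality and batch were not given per array, and their part in this was not tested.

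**Figure D1:**
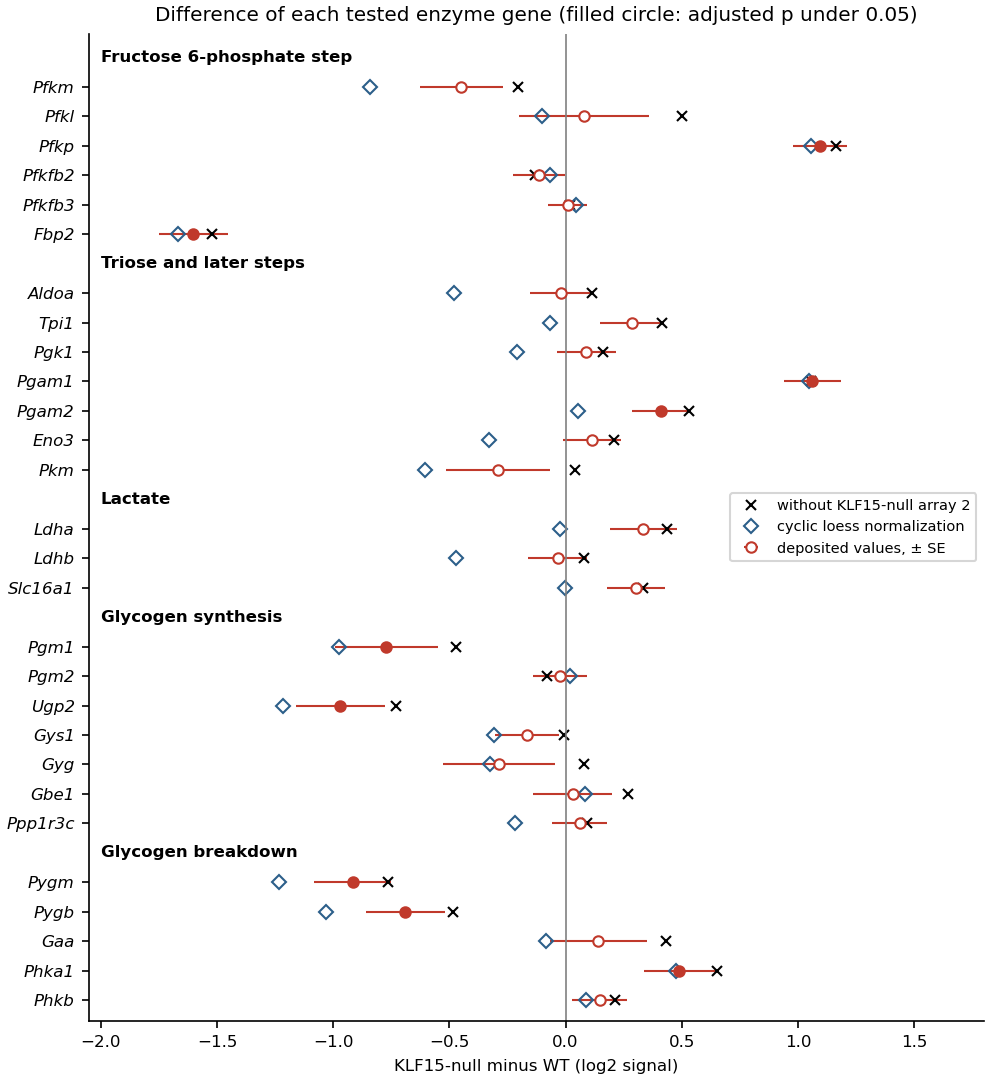
Difference (KLF15-null minus WT, log2 signal) of each of the 28 tested genes by role, with the standard error, beside the same difference without KLF15-null array 2 (crosses) and after cyclic loess normalization (diamonds). Fbp2 at -1.60, Pfkp at 1.10 and Pgam1 at 1.06 hardly move between the settings, while bright glycolytic genes such as Aldoa and Eno3 lie below 0 after cyclic loess normalization.

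**Figure D2:**
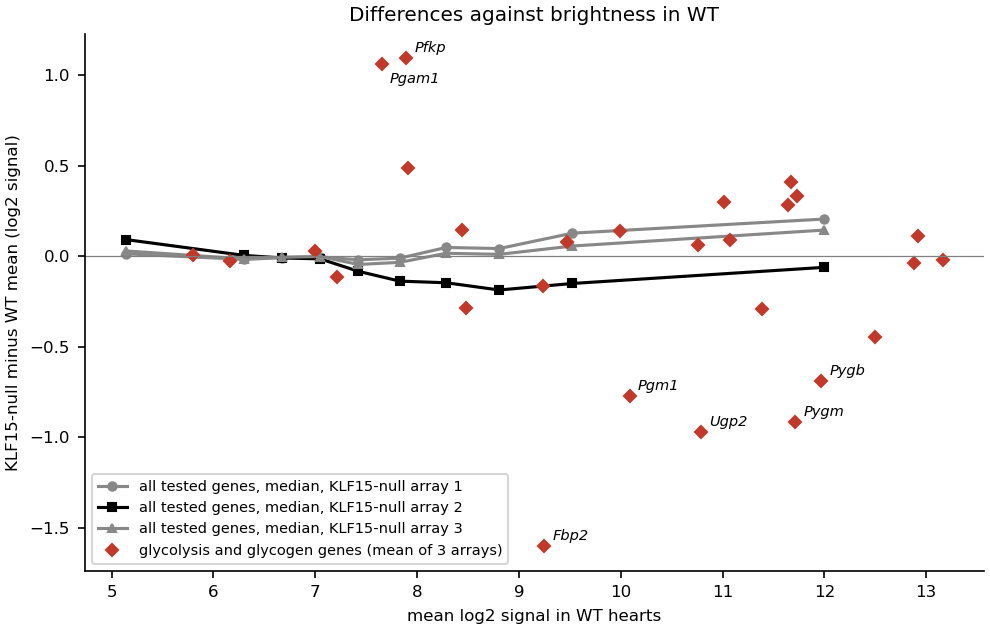
Difference of each tested enzyme gene (diamonds) against its mean log2 signal in WT hearts, with the median over all tested genes in each of 10 ranges of brightness for each KLF15-null array (lines). In the brightest range the medians were 0.21, -0.06 and 0.15 for KLF15-null arrays 1, 2 and 3, and Pygm, Pygb, Ugp2 and Pgm1 lie below all of them. Fbp2 falls in the next dimmer range and lies below its medians of 0.13, -0.15 and 0.06.

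The conversion of fructose 6-phosphate to fructose 1,6-bisphosphate commits sugar to glycolysis, and here the isoforms differed. Pfkp read 9.18, 8.85 and 8.93 in KLF15-null hearts, against 7.72, 7.98, 7.98 and 7.89 in WT hearts. The lowest KLF15-null array stood well above the highest WT array, and the difference was 1.10 (SE 0.12, adjusted p = 6.02e-05). Its second probe set, dim on every array and not tested, ran the other way, with means of 5.04 in KLF15-null and 5.67 in WT hearts. Pfkm, the muscle form, read 12.37, 11.56 and 12.21 in KLF15-null hearts, against 12.53, 12.49, 12.62 and 12.35 in WT hearts. These groups overlapped, and the difference of -0.45 was not past the threshold (adjusted p = 0.062). After cyclic loess normalization it was -0.84 and past it, and -0.21 and not past it without KLF15-null array 2. Pfkl, the liver form, read 9.96, 8.70 and 9.98 in KLF15-null hearts, against 9.46, 9.44, 9.64 and 9.34 in WT hearts. KLF15-null arrays 1 and 3 lay above every WT array and array 2 below every one. The difference was 0.08 (adjusted p = 0.834), and 0.50 without array 2 (adjusted p = 0.00437).

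Fbp2 catalyses the opposite reaction and had the largest difference of the 28 genes tested. It read 7.77, 7.48 and 7.68 in KLF15-null hearts, against 9.11, 9.39, 9.52 and 8.97 in WT hearts. No KLF15-null array came within 1 log2 unit of the lowest WT array, and the difference was -1.60 (SE 0.15, adjusted p = 2.48e-05). It kept its call under each alternative run, between -1.69 and -1.51. Pfkfb2 and Pfkfb3 code for the bifunctional enzymes that set the level of fructose 2,6-bisphosphate, the activator of phosphofructokinase, Pfkfb2 being the heart form. They differed by -0.11 and 0.01, not past the threshold (adjusted p = 0.427 and 0.931).

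In the steps from aldolase to pyruvate 2 of 7 tested genes rose, 0 fell and 5 missed the threshold. Pgam1 read 8.67, 8.73 and 8.75 in KLF15-null hearts, against 7.36, 7.72, 7.82 and 7.72 in WT hearts. The KLF15-null arrays were tightly grouped above all WT arrays, with a difference of 1.06 (SE 0.12, adjusted p = 8.21e-05). Pgam2, the muscle-type mutase of the same step, read 12.19, 11.85 and 12.23 in KLF15-null hearts, against 11.54, 11.69, 11.83 and 11.65 in WT hearts. KLF15-null array 2 stood only just above WT array 3, and the difference was 0.41 (SE 0.13, adjusted p = 0.0208). That call was lost after quantile normalization, where the difference was -0.01, and after cyclic loess normalization, where it was 0.05. It was also lost when any array other than KLF15-null array 2 or WT array 3 was left out (adjusted p between 0.0502 and 0.095).

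The other genes of this stretch are among the brightest of the heart. Aldoa (aldolase A) differed by -0.02, Pgk1 (phosphoglycerate kinase) by 0.09 and Eno3 (muscle enolase) by 0.11, with adjusted p between 0.468 and 0.908. Tpi1 (triosephosphate isomerase) differed by 0.28 (adjusted p = 0.113). Pkm, the muscle pyruvate kinase, read 11.52, 10.44 and 11.35 in KLF15-null hearts, against 11.37, 11.37, 11.48 and 11.35 in WT hearts. KLF15-null array 2 stood apart from all other arrays, so that the difference was -0.29 with it (adjusted p = 0.309) and 0.04 without it. After cyclic loess normalization Aldoa, Eno3 and Pkm were called lower (-0.48, -0.33 and -0.60).

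Of the genes of lactate handling, 0 of 3 tested passed the threshold. Ldha, which codes for the M subunit of lactate dehydrogenase, read 12.24, 11.86 and 12.11 in KLF15-null hearts, against 11.54, 11.72, 12.04 and 11.64 in WT hearts. The groups overlapped through KLF15-null array 2 and WT array 3, and the difference was 0.33 (adjusted p = 0.0788). It passed without KLF15-null array 2 (0.44) and without WT array 3 (0.44). Ldhb, the H subunit typical of heart, read 13.05, 12.62 and 12.88 in KLF15-null hearts, against 12.94, 12.90, 13.02 and 12.68 in WT hearts. These values were mixed and differed by -0.03 (adjusted p = 0.844). Slc16a1, the lactate carrier MCT1, averaged 11.32 ± 0.08 in KLF15-null (SD, n = 3) and 11.02 ± 0.185 in WT hearts (SD, n = 4). The groups did not overlap, but 0.30 was not past the threshold (adjusted p = 0.0672). The carrier gene Slc16a3 (MCT4) stayed under the filter, with means of 5.70 in KLF15-null and 5.65 in WT hearts.

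Of the 7 genes listed under glycogen synthesis, Pgm2 and the regulatory subunit gene Ppp1r3c among them, 2 fell, 0 rose and 5 missed the threshold. Pgm1, the main phosphoglucomutase of muscle, read 9.73, 8.72 and 9.50 in KLF15-null hearts, against 9.999, 10.08, 10.32 and 9.95 in WT hearts. Every KLF15-null value was under every WT value, array 2 by the most, and the difference was -0.77 (SE 0.22, adjusted p = 0.0156). Without array 2 it was -0.47 and still past the threshold (adjusted p = 0.0151). Pgm2, a phosphopentomutase related to it, read 6.33, 6.25 and 5.83 in KLF15-null hearts, against 6.13, 6.17, 6.17 and 6.16 in WT hearts. These groups overlapped and differed by -0.02 (adjusted p = 0.882). Ugp2 makes UDP-glucose, the donor for glycogen synthase. On its brightest probe set it read 10.13, 9.34 and 9.99 in KLF15-null hearts, against 10.63, 10.76, 11.05 and 10.71 in WT hearts. The groups were apart by -0.97 (SE 0.19, adjusted p = 0.00225), but 1 of its other probe sets rose and 3 did not pass the threshold, as given below.

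The enzymes that start, extend and branch the polymer did not pass the test on their chosen probe sets. Glycogen synthase of muscle (Gys1) differed by -0.16 (adjusted p = 0.347), glycogenin (Gyg) by -0.29 (adjusted p = 0.349) and the branching enzyme (Gbe1) by 0.03 (adjusted p = 0.899). In Gyg the whole difference came from KLF15-null array 2, at 7.45 beside 8.48 and 8.64 on the other KLF15-null arrays and 8.47 to 8.48 on the WT arrays, and it was 0.08 without that array. Ppp1r3c codes for a subunit that brings protein phosphatase 1 to glycogen, where it activates glycogen synthase. Its brightest probe set read 10.97, 10.76 and 10.74 in KLF15-null hearts, against 10.60, 10.76, 10.95 and 10.74 in WT hearts, a difference of 0.06 (adjusted p = 0.697).

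Of 5 tested genes of glycogen breakdown 2 fell, 1 rose and 2 missed the threshold. Pygm, the muscle glycogen phosphorylase, read 11.18, 10.49 and 10.72 in KLF15-null hearts, against 11.69, 11.65, 11.93 and 11.58 in WT hearts. The highest KLF15-null array stayed below the lowest WT array, and the difference was -0.92 (SE 0.17, adjusted p = 0.00131). Pygb, the brain-type phosphorylase, which is also expressed in heart, read 11.56, 10.87 and 11.41 in KLF15-null hearts, against 11.85, 12.02, 12.17 and 11.85 in WT hearts. It too was lower without overlap, with a difference of -0.69 (SE 0.17, adjusted p = 0.00727). Both calls held when each array was left out, with differences between -1.11 and -0.76 for Pygm and between -0.83 and -0.48 for Pygb. Pygl, the liver form, was under the filter, with means of 5.27 in KLF15-null and 5.17 in WT hearts.

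Phosphorylase kinase activates phosphorylase, and its muscle-type α subunit gene Phka1 rose. It read 8.48, 8.07 and 8.65 in KLF15-null hearts, against 7.88, 8.06, 8.02 and 7.68 in WT hearts. KLF15-null array 2 lay almost level with WT array 2, and the difference was 0.49 (SE 0.15, adjusted p = 0.0227). The call was lost without KLF15-null array 1 or 3, or WT array 1 or 4 (adjusted p between 0.0562 and 0.0969). The β subunit Phkb differed by 0.15 (adjusted p = 0.327), and the catalytic subunit Phkg1 stayed under the filter. Gaa, the lysosomal α-glucosidase that degrades glycogen taken up by lysosomes, differed by 0.14 (adjusted p = 0.595), and by 0.43 without KLF15-null array 2 (adjusted p = 0.00873).

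**Figure D3:**
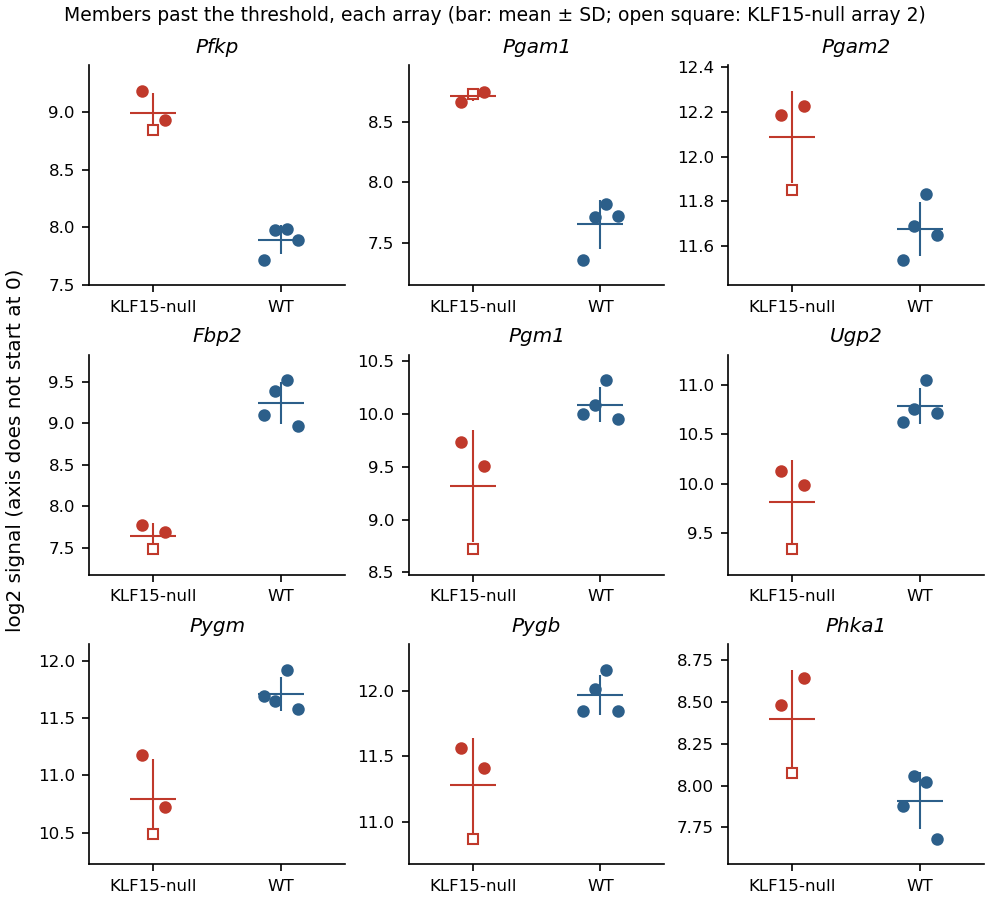
Log2 signal on each KLF15-null array (red, array 2 as an open square) and each WT array (blue) for the 9 genes past the threshold, with the mean and SD of 3 and 4 arrays. In every panel the groups do not overlap, and in Pgam2 and Phka1 KLF15-null array 2 lies next to the highest WT array.

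The promoters of the genes with the clearest rises and falls are shown because Krüppel-like factors are known to bind CACCC sequences. The 300 bases run 5′ to 3′ on the gene's strand, from 250 before the start to 50 after it, from RefSeq on GRCm38.p6, with CACCC or its complement GGGTG in capitals. Pfkp lies at chr13:6648722-6649021 on the minus strand, Pgam1 at chr19:41911621-41911920 on the plus strand, Fbp2 at chr13:62858351-62858650 on the minus strand and Pygm at chr19:6384158-6384457 on the plus strand.
Pfkp: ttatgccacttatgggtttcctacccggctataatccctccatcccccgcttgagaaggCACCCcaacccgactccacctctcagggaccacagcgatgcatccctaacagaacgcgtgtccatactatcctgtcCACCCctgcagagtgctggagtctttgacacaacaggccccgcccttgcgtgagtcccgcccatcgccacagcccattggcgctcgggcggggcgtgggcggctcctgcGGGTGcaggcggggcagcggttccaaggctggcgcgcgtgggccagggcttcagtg
Pgam1: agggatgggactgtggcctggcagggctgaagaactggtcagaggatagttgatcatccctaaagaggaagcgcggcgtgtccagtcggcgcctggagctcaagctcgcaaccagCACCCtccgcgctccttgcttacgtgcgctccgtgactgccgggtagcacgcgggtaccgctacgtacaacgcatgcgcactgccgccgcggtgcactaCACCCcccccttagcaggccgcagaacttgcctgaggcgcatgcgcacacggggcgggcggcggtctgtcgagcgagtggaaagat
Fbp2: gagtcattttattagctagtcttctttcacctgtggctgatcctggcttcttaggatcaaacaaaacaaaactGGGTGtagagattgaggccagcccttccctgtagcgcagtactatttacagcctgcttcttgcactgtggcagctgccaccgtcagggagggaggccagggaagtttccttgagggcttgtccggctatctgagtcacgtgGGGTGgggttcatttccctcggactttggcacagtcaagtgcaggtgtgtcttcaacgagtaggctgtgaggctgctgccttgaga
Pygm: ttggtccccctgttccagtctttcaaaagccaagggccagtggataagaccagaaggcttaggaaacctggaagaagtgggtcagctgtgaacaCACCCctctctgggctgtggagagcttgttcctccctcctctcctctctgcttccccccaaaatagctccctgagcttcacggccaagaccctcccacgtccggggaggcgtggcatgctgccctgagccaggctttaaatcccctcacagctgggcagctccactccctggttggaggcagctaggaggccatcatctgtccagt
The motif, counted on both strands with overlaps allowed, occurred 3 times in Pfkp, 2 times in Pgam1, 2 times in Fbp2 and 1 time in Pygm. It occurred 0 times in the windows of Pgm1 and Pygb, and in 1 of the 2 listed for Ugp2. Of 32544 RefSeq promoter windows 57.7% hold it and 9.4% hold it at least 3 times, so most of these counts are ordinary. The E-box CACGTG occurred 1 time in Fbp2 and 0 times in the windows of the other 6 genes, against 7.2% of all windows. These matches describe the sequence and show no binding.

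Isoform genes of the same step, and the related genes Pgm2 and Pgm1, were also compared within each array. The log2 signal of one gene was subtracted from that of the other. This cancels a constant shift of an array, but not a shift that varies with brightness. Genes of a pair could be unlike in brightness, as Pfkp and Pfkm were (WT means of 7.89 and 12.50). The comparison says only whether the signals of the pair changed unequally, not which isoform is more abundant. Of 12 pairs listed 7 had both genes tested. For Pfkp minus Pfkm the values were -3.19, -2.72 and -3.28 in KLF15-null hearts, against -4.81, -4.51, -4.64 and -4.45 in WT hearts. The shift of 1.54 towards Pfkp was seen on every KLF15-null array (exact permutation p = 0.0286, two-sided, the smallest that 35 splits allow, and 0.05 after Benjamini-Hochberg adjustment over the 7 pairs, at but not under the threshold). Pfkl minus Pfkm moved by 0.53 and Pgam1 minus Pgam2 by 0.65, with the same exact permutation p of 0.0286 (adjusted 0.05). Both phosphofructokinase pairs share Pfkm, and each rests on the brighter probe set of its other gene. The second Pfkl probe set differed by -0.33, beside -0.45 for Pfkm. The second Pfkp probe set, dim and not tested, differed by -0.64.

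Pgm2 minus Pgm1, related genes rather than isoforms of the same step, moved by 0.75 (exact permutation p = 0.0286, adjusted 0.05). Without KLF15-null array 2 it moved by 0.39. Ldha minus Ldhb moved by 0.37, with values of -0.81, -0.76 and -0.78 in KLF15-null hearts and of -1.40, -1.18, -0.99 and -1.04 in WT hearts (exact permutation p = 0.0571, adjusted 0.0666). The groups did not overlap, but the result rests on the brightest Ldhb probe set. Its other probe sets differed by 0.68 and 0.34, both past the threshold, and by 0.26, not past it. The gene-specific one of these, at 0.68, rose more than Ldha (0.33), so with it the pair would move the other way. Pygb minus Pygm moved by 0.23 (exact permutation p = 0.0571, adjusted 0.0666), by 0.125 without KLF15-null array 3, and its groups overlapped after quantile and after cyclic loess normalization. Pfkfb3 minus Pfkfb2 moved by 0.12, with overlapping groups (exact permutation p = 0.486).

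**Figure D4:**
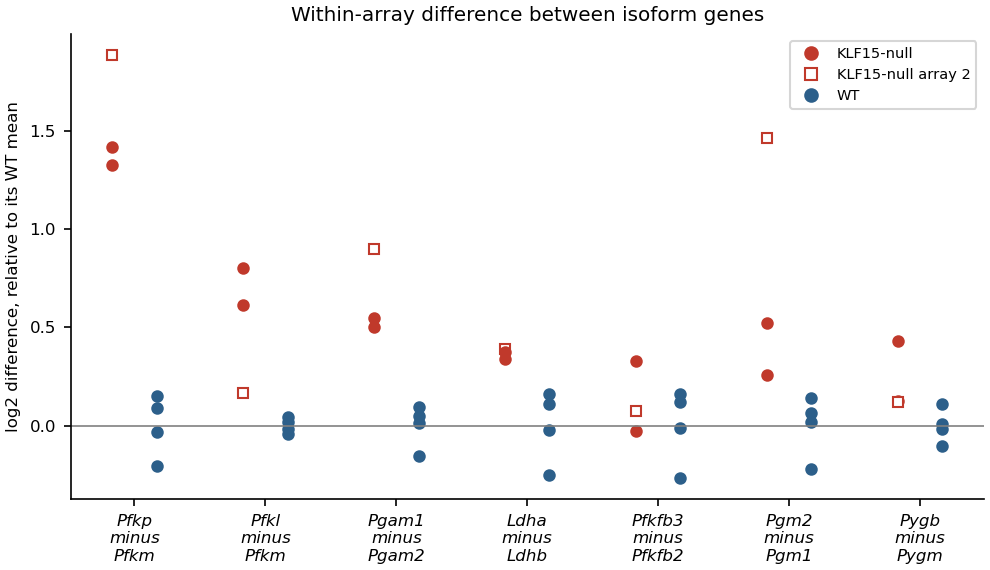
Within-array log2 difference between the genes of each pair compared, relative to its WT mean, on 3 KLF15-null arrays (red, left, array 2 open) and 4 WT arrays (blue, right). All KLF15-null values lie above all WT values in every pair except Pfkfb3 minus Pfkfb2.

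Several genes are covered by more than 1 probe set, and these often disagreed. Of the 58 probe sets 48 were tested, of which 13 were higher and 8 lower. Among all probe sets tested 50.6% were called, 26.8% higher and 23.8% lower. Groups did not overlap in 13 higher and 9 lower probe sets of these genes, and in 53% of all probe sets tested in either direction. In 2 genes, Ugp2 and Phka1, probe sets passed the threshold in opposite directions. The brightest Ugp2 probe set fell by 0.97 and another rose by 0.49 (adjusted p = 0.00352), and the other 3 differed by -0.415, -0.095 and 0.09, not past the threshold. After cyclic loess normalization the first 2 of these were called lower, at -0.44 and -0.35. Phka1 rose by 0.49 and 0.55 on its brighter probe sets and fell by 0.87 on the dimmest, which in KLF15-null hearts averaged only 5.26, under the filter level. In 6 genes the chosen probe set did not pass and another did. They are Tpi1, Pgk1, Ldhb, Gys1, Gaa and Ppp1r3c, and the probe sets named next were chosen after their values were seen.

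The second Ppp1r3c probe set read 5.95, 5.20 and 5.48 in KLF15-null hearts, against 7.79, 8.18, 8.12 and 8.11 in WT hearts. This was the largest fall of any probe set of these genes, at -2.51 (SE 0.17, adjusted p = 4.57e-06), and its average of 5.54 in KLF15-null hearts was under the filter level, so the fall may be larger than measured. The dimmer Gys1 probe set, of the kind that can match several genes (_s_at), averaged 6.205 ± 0.12 in KLF15-null (SD, n = 3) and 7.43 ± 0.16 in WT hearts (SD, n = 4). It fell by 1.22 (SE 0.11, adjusted p = 1.87e-05), beside -0.16 on the brighter one. Other probe sets of Tpi1, Ldhb and Pgk1 ran higher than the chosen one, whereas those of Aldoa differed by -0.51, -0.19 and 0.06 and that of Pfkl by -0.33, none past the threshold. Tpi1 rose by 0.67 on a second gene-specific probe set (adjusted p = 0.00106) and Ldhb by 0.68 (adjusted p = 0.000931), and Pgk1 rose by 0.65 and 0.66 on its _x_at probe sets. These remained past the threshold after cyclic loess normalization, at 0.34, 0.26, and 0.29 and 0.54. A further probe set of Tpi1 (0.41) and another of Ldhb (0.34), both _x_at, lost their calls there, at 0.05 and -0.08. The positions of the probe sets within their transcripts were not used here.

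**Figure D5:**
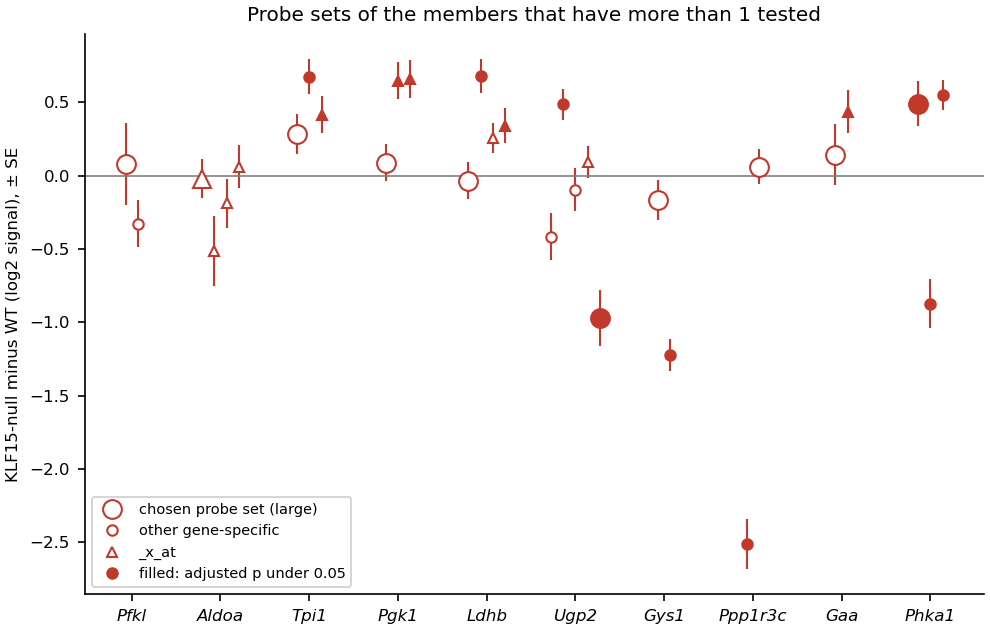
Difference (KLF15-null minus WT, log2 signal, with its standard error) of every tested probe set of the 10 genes with more than 1, large symbols marking the chosen one, triangles _x_at probe sets and filled symbols an adjusted p under 0.05. Ppp1r3c at 0.06 and -2.51, Gys1 at -0.16 and -1.22, Ugp2 at -0.97 and 0.49, and Phka1 at 0.49 and -0.87 show the widest disagreement.

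Neighbouring genes of the pathway, given from lists, are described by their counts and their genes of smallest p. Of 14 tested genes of glucose entry and side steps 7 rose, 3 fell and 4 missed the threshold, with 4 higher and 4 lower after cyclic loess normalization. The basal glucose transporter Slc2a1 rose by 2.18 and 1.96 on a pair of probe sets and differed by 0.20 on its other one, not past the threshold. The insulin-responsive Slc2a4 was lower on both of its probe sets, at -1.45 on the brighter and -3.85 on the dimmer, where its KLF15-null mean of 5.65 was under the filter level. The transporter Slc2a3 rose by 0.63, but its WT mean of 5.67 was under the filter level, so it was tested only through its KLF15-null values. Bsg (basigin), the partner protein that carries MCT1 to the cell surface, read 10.88, 9.48 and 10.47 in KLF15-null hearts, against 12.57, 12.71, 12.76 and 12.36 in WT hearts. Bsg fell by 2.33 (SE 0.28, adjusted p = 0.000109), whereas Slc16a1 did not pass the threshold.

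Of 14 further genes of glycogen handling 3 rose, 5 fell and 6 missed the threshold. Stbd1, which tethers glycogen to membranes, rose by 0.99 on its only probe set (adjusted p = 5.84e-05). Among the catalytic subunits of protein phosphatase 1, Ppp1cc rose by 0.88 on its brighter probe set and fell by 0.93 on the dimmer. Of those named after their values were seen, Ppp1ca fell by 1.22 (adjusted p = 0.00271). Ppp1cb differed by 0.265 on its brightest probe set, not past the threshold, and rose by 0.57, 0.72 and 0.69 on its others. The glycogen synthase kinase gene Gsk3b fell by 0.53 and the glucose 6-phosphatase gene G6pc3 by 0.63. The brighter kinase gene Gsk3a, named after its values were seen, rose by 0.48 (adjusted p = 0.00527). After cyclic loess normalization Gsk3a differed by 0.26, not past the threshold. Of 10 tested genes of the pentose phosphate and hexosamine routes, which branch off glycolysis, 7 rose, 1 fell and 2 missed the threshold. Their median was 0.545, and 0.43 after cyclic loess normalization, with 8 higher and 1 lower. Rpia and H6pd of the pentose phosphate route rose by 0.88 and 0.70, and Uap1, which makes UDP-N-acetylglucosamine, by 0.75. Oga, which removes that sugar from proteins, was counted as higher by its brightest probe set (0.65), but 3 dimmer ones fell, by 0.87, 1.74 and 2.22. Of 14 regulators of glycolytic genes 2 rose and 5, Klf15 itself among them, fell. Hif1a, the oxygen-regulated factor that drives many glycolytic genes, rose by 1.38 (adjusted p = 8.14e-06) and Myc by 0.97, while Mef2a, a muscle transcription factor, was lower on each of its 4 tested probe sets, at -0.77 on the brightest and between -2.41 and -1.59 on the others.

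Whole heart holds many cell types, and in bulk tissue fewer cells of a type and less RNA per cell cannot be told apart. Of 11 tested leukocyte markers 9 rose, 0 fell and 2 missed the threshold, with a median of 1.255. One of the 9, Coro1a, had a WT mean of 5.53, under the filter level, and was tested only through its KLF15-null values. The summed signal of the leukocyte markers ran from 4816 to 6978 in KLF15-null hearts, against 2382 to 3589 in WT hearts, on the linear scale. Their part in the differences of Pfkp, Pgam1 and the other enzymes was not tested. Of the skeletal muscle markers 9 had a probe set and 7 of these stayed under the filter. Their summed signal ran from 359 to 663 in KLF15-null hearts, against 348 to 371 in WT hearts. Tnnc2 read 7.11, 5.29 and 5.31 in KLF15-null hearts, against 5.14 to 5.29 in WT hearts. Pvalb read 6.90, 5.69 and 5.62, against 5.57 to 5.90, while Myh1 was not raised on KLF15-null array 1. The part of this signal of array 1 in the enzyme values was not tested. Endothelial markers were lower in 3 of 8 cases and not past the threshold in the other 5, with a median of -0.144. Without KLF15-null array 2 their median was 0.05, with 1 higher and 3 lower. Pecam1 had the largest fall, at -2.24, while Kdr differed by 0.46, not past the threshold. Fibroblast markers were lower in 2 and higher in 1 of 8, and smooth muscle markers lower in 2 of 6. Of the erythroid and adipocyte markers 1 each was tested and neither passed.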

How the data were processed

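Per the labels' protocols, Trizol-extracted RNA was checked on a Bioanalyzer and made into Affymetrix 3' target by a one-cycle synthesis. The authors deposited 22626 probe set values on each of 7 arrays, and their range marks them as log2. The submitters' processing notes name GCOS alone, and the sources used here do not state how signals were summarized or normalized. Of the probe sets 47.3% hold exactly equal values on at least 2 arrays. Scanner files and detection calls were not used here.

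Symbols came from the platform annotation (20380 probe sets with 1 symbol, 691 with several, 1555 with none). All 32 measured genes kept their symbol in RefSeq by Entrez number. The fit across all probe sets used limma 3.58.1 under R 4.3.3 on 3 KLF15-null and 4 WT arrays, with an intensity trend and no covariate, two-sided, and p-values were adjusted by Benjamini-Hochberg across the 13576 probe sets kept. Every adjusted p for a gene comes from this model or, where another setting or a left-out array is named, from the fit under that setting. The model was tested on simulated data, drawn as independent normal values with the WT spread on every array. The KLF15-null arrays correlated less with each other than the WT arrays did, so the simulation does not test the model at their spread. Array medians differed by less than 0.15, so values were used as deposited. Gene pairs were compared by an exact permutation test over 35 splits.

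Per-array values are given for genes called with a difference of at least 0.5 and for both genes of each compared pair without overlap. A few others were chosen after their values were seen (Phka1, Pkm, Ppp1r3c, Bsg, Tnnc2, Pvalb). Neighbour lists are given by counts with the genes of smallest p. The genes, lists and tests were chosen with earlier results of these data known. The number of arrays limits the precision. Whether replicate numbers pair the arrays was checked by correlating deviations from the group means, which gave -0.11, 0.00 and 0.19, so they were not taken as pairs.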

Additional observations from a re-analysis of the deposited data

Results flagged for a closer look

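In each of the 28 tested genes the 4 WT arrays were examined for an array far from the others by Dixon's ratio. Such an array was found in 5 genes. Chance gives about 1 in 20 for values without ties. All 5 genes hold exactly equal values on WT arrays, which raises the ratio, so their number cannot be set against that rate. Pfkfb2 read 7.50 in WT heart 1, beside 7.09 to 7.13 in the other WT hearts. Pfkfb3 read 5.70 in WT heart 3, beside 5.82 to 5.83. Pkm read 11.48 in WT heart 3, beside 11.35 to 11.37. In Gyg and Phkb the other 3 WT hearts held exactly the same value, so that any departure stands out: Gyg read 8.47 in WT heart 1, beside 8.48, and Phkb read 8.41 in WT heart 4, beside 8.45. Of the 28 genes 10 hold exactly equal values on at least 2 arrays.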

How the results depend on the processing

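The 5 lower calls (Fbp2, Pgm1, Ugp2, Pygm, Pygb) and those of Pfkp and Pgam1 held under every filter, scaling and moderation setting and with each array left out. The exception was Ugp2, lost with the probe set brightest over the 7 arrays (-0.095) and with probe sets averaged per gene (-0.25). The count of higher genes (4) was 7 after centring each array on its median, 10 with array weights and 2 with a replicate block, and ran from 2 to 8 with each array left out (from 5 to 6 for the lower genes). The lowest count of 2 came without KLF15-null array 1 or 3 or WT array 1 or 4, and it was 7 without WT array 3. The shares of all genes called with array weights, with the replicate block or without arrays other than KLF15-null array 2 are not given. The counts under those settings therefore cannot be set against all genes. The count of lower genes (5) was 12 after quantile and 11 after cyclic loess normalization. Counting any gene-specific probe set past the threshold, a choice made after seeing the data, gave 7 higher and 8 lower. Ugp2 and Phka1 stand in both counts. More probe sets per gene give any gene more chances of a call, and the share of all genes counted this way is not given. After quantile normalization the direction turned for Pgk1 (-0.31), Pgam2 (-0.012) and Ppp1r3c (-0.32), after cyclic loess normalization for Eno3 (-0.33), and with probe sets averaged per gene for Ldhb (0.32) and Ppp1r3c (-1.23). The cause was not tested. In 38 further cases, among 16 genes, the sign changed with the gene past the threshold in neither setting. The median difference ran from -0.16 after cyclic loess normalization to 0.11 after median centring. Under the replicate block, in which WT array 4 has no partner, Pgam2 and Phka1 lost their calls (adjusted p = 0.0599 and 0.0796). No batch was given, and no detection calls show which dim signals lie above background.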
